A study of Mus musculus with 6 samples.

Results

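The genes described here build cholesterol and fatty acids or control that building. The list holds 33 mouse genes, chosen by symbol and Entrez ID from the pathways governed by the sterol regulatory element-binding proteins (SREBPs), out of 27179 genes in the count table. All 33 were found there, and all 33 passed the filter on low counts, which kept 11602 genes. RNA-seq of polyadenylated RNA was available from CD8-negative dendritic cells sorted from the spleens of C57BL/6 mice and lysed without culture. There were 3 CpG-pretreated and 3 untreated libraries, and both groups carried the replicate numbers 2, 3 and 4. CpG DNA activates Toll-like receptor 9, and the title of the series describes the cells as paralysed by a preceding systemic inflammation. The comparison asks how the RNA of these cells differed after CpG exposure. The sources used here do not give the CpG sequence, its dose, route and interval, the age of the mice or any pooling of mice.

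Cholesterol is assembled from acetyl-CoA through mevalonate, farnesyl diphosphate, squalene and lanosterol, and fatty acids are assembled from cytosolic acetyl-CoA by acetyl-CoA carboxylase and fatty acid synthase. SREBP precursors sit in the endoplasmic reticulum bound to the escort protein SCAP. INSIG proteins hold the complex there when sterols are plentiful, and when sterols fall the SREBPs travel to the Golgi, are cut and switch on the synthesis genes. Toll-like receptor ligands and interferons are known to alter lipid synthesis in myeloid cells.

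The libraries were close in depth, with 7855500 to 8228140 counts each, so that 1 count was 0.123 to 0.127 CPM (counts scaled to library size). Both libraries numbered 2 stood apart from the other 4 in relation to gene length, with long genes low. Libraries of 1 group differed by more than sampling noise in each pairing (chi-square per degree of freedom 3.30 to 20.8). Dendritic cell markers were high in all 6 libraries, with the 8 core genes at 45507 to 58769 CPM in sum, Itgax at 1812 to 2275 CPM and Cd8a at 1.23 to 4.69 CPM. The 10 markers of CD8-negative conventional dendritic cells summed to 2880 to 3820 CPM and the 9 of the CD8-positive kind to 1741 to 2871 CPM, of which Wdfy4 made up 1539 to 2707 CPM. Some markers of both subsets differed between the groups, as given with Fads1 and Fads2. Markers of T cells (40.7 to 46.7 CPM in sum), B cells (62.1 to 100 CPM), NK cells (112 to 175 CPM) and neutrophils (3.93 to 104 CPM) were low in all libraries. Cd5 made up 38.3 to 42.1 CPM of the T cell sum, and Klrd1 108 to 173 CPM of the NK cell sum. Monocyte markers summed to 409 to 553 CPM. Plasmacytoid dendritic cell markers summed to 255 to 259 CPM untreated and 283 to 318 CPM after CpG, without overlap. Spib made up 129 to 188 CPM of this sum, Tcf4 58.6 to 75.0 CPM and Bst2 38.8 to 77.6 CPM, with Siglech at 1.11 to 2.21 CPM. Of these 8 markers 5 were tested. By edgeR 0 had an adjusted p under 0.05, without or with the replicate number as a block.

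After CpG pretreatment most of these genes had fold changes close to 1, as did most of all genes tested. By edgeR's quasi-likelihood test with Benjamini-Hochberg adjustment over all genes, 0 of the 33 genes were called at an adjusted p under 0.05, where 0.974% of all genes tested were called (0.474% higher, 0.5% lower). At an unadjusted p under 0.05 there were 4 of 33 (Fads2, Fads1, Idi1 and Pmvk), against 12.8% of all genes. DESeq2 called 2 of 33, against 3.69% of all genes, and limma-voom 0, against 0.353%. With the replicate number as a block in the edgeR fit, 2 of 33 (6.06%) rose, Fads1 and Fads2, the desaturase genes of polyunsaturated fatty acid synthesis, and 0 fell. The block called 8.52% of all genes (4.73% higher, 3.78% lower). The share of the 33 genes called was below the background in either direction and above that for higher calls alone, and it rests on 2 genes. Without both libraries numbered 2, an alternative added after the data were seen, 0 of 33 were called with or without the block.

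The median log2 fold change of the 33 genes, CpG-pretreated over untreated, was 0.13, beside -0.01 over all genes tested. It was 0.05 without untreated replicate 2, 0.21 without untreated replicate 3 and 0.07 without both libraries numbered 2. The fold change was above 0 in 29 of 33 (87.9%), against 48.9% of all genes. That count was 26 with library size only or upper quartile scaling, 22 without untreated replicate 2 and 24 without both libraries numbered 2. Absolute log2 fold changes were under 0.25 in 26 of 33 (78.8%), against 73.4% of all genes. For 29 of the 33 genes the 95% interval of the log2 fold change lay between -1 and 1, as for 86.3% of all genes. A change of 2-fold or more therefore lay outside the interval for those 29. The other 4 were Idi1, Scd1, Fads1 and Fads2, of which all but Fads1 had mean levels under 5 CPM in both groups.

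**Figure D1:**
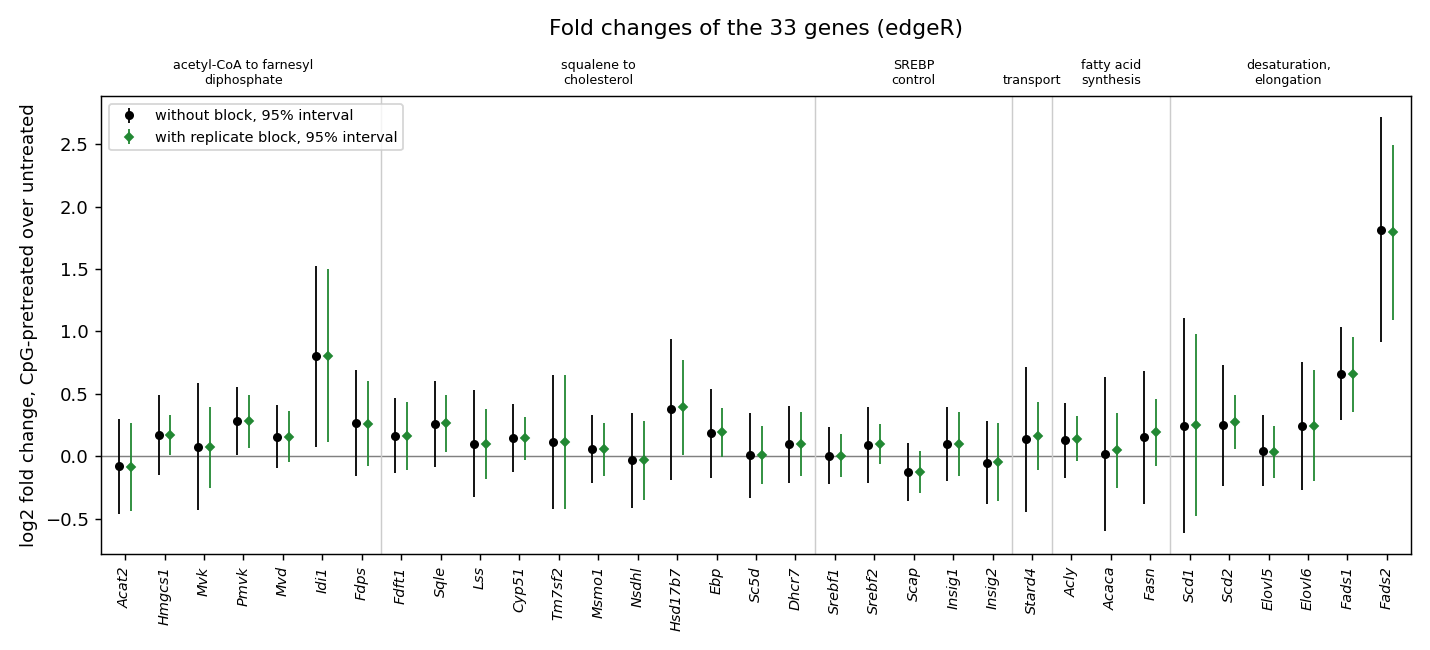
Log2 fold change of each of the 33 genes, CpG-pretreated over untreated, with 95% intervals from edgeR without (black circles) and with (green diamonds) the replicate number as a block, 3 libraries a group. Most points lie near 0, while Fads1 and Fads2 at the right stand at 0.66 and 1.82.

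In every library the 33 genes together took a small share of the counts, from 0.196% to 0.251%. Here and below, values of single libraries stand in the order 2, 3 and 4. The summed level was 1890, 2440 and 2346 CPM untreated and 2219, 2538 and 2433 CPM after CpG. The groups overlapped, and the lowest library in each was the one numbered 2. Level per gene length, in CPM per kilobase, spanned from 0.382 for Scd1 to 137 for Srebf2 as means of all 6 libraries. Srebf2 thus stood at percentile 96.6 of all genes tested, Acly at 90.9 and Elovl5 at 90.4, whereas Elovl6 stood at 6.71, Idi1 at 4.46 and Scd1 at 1.17.

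**Figure D2:**
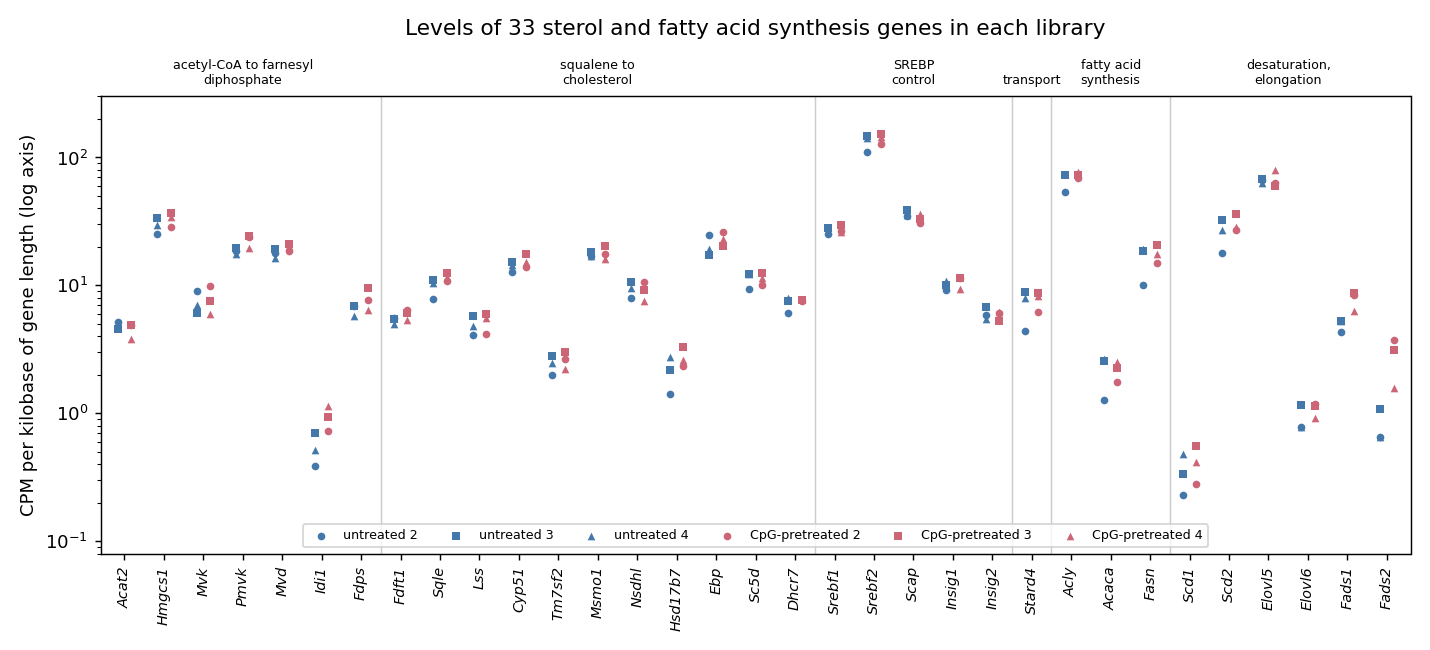
Level of each of the 33 genes in each of the 6 libraries, in CPM per kilobase on a log axis, blue for untreated and red for CpG-pretreated, with a marker shape for each replicate number. Srebf2, Acly and Elovl5 are the highest, Scd1 and Idi1 the lowest, and the colours overlap for most genes.

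The 7 genes from acetyl-CoA to farnesyl diphosphate had log2 fold changes from -0.08 (Acat2) to 0.80 (Idi1), with 0 called without or with the block. Hmgcs1 (Entrez 208715, chromosome 13, 119690351 to 119708260), which encodes the synthase that makes HMG-CoA, was the highest of them per length. It stood at 82.8, 111 and 97.5 CPM in the untreated group and at 93.5, 121 and 112 CPM after CpG. The groups overlapped, although each CpG-pretreated library exceeded its same-numbered untreated one. That held for 15 of the 33 genes and for 22.2% of all genes tested. The log2 fold change of Hmgcs1 was 0.17 (SE 0.14, 95% interval -0.15 to 0.49, edgeR adjusted p = 0.737).

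Idi1, the isopentenyl-diphosphate isomerase gene, had the largest fold change among these 7 and very low counts. The untreated libraries held 9, 16 and 12 counts and the CpG-pretreated ones 17, 21 and 26. The lowest CpG-pretreated library stood just above the highest untreated one. The log2 fold change of 0.80 (SE 0.32, interval 0.08 to 1.53) was not called (adjusted p = 0.329, and 0.155 with the block). Pmvk, which encodes phosphomevalonate kinase, was the other gene of this group whose libraries did not overlap, at 28.0 ± 1.42 against 34.1 ± 3.77 CPM (SD, n = 3 per group). Its log2 fold change was 0.28 (edgeR adjusted p = 0.375, and 0.109 with the block). Groups did not overlap in 18.7% of all genes tested (9.2% higher, 9.47% lower) and in 4 of these 33 (12.1%), all 4 higher after CpG. The remaining genes of this segment, Mvk (mevalonate kinase), Mvd (mevalonate diphosphate decarboxylase), Fdps (farnesyl diphosphate synthase) and Acat2 (a cytosolic thiolase), lay between -0.08 and 0.27.

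The 11 genes that turn farnesyl diphosphate into cholesterol had log2 fold changes from -0.03 (Nsdhl) to 0.38 (Hsd17b7) and 0 called without or with the block. Ebp, the sterol isomerase gene, was the highest of them per length. It was at 42.8, 30.0 and 33.8 CPM in the untreated group and at 45.4, 35.5 and 40.3 CPM after CpG. The library numbered 2 was the highest of each group, and the groups overlapped (log2 fold change 0.19, SE 0.16, edgeR adjusted p = 0.741). Hsd17b7, a sterol ketoreductase gene, had the largest fold change of the segment. Its levels were 6.51, 10.002 and 12.5 CPM untreated and 10.8, 14.96 and 12.0 CPM after CpG in libraries 2, 3 and 4. The spread within each group was as wide as the difference between groups, and pair 4 ran the other way (log2 fold change 0.38, SE 0.25, adjusted p = 0.634).

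The enzymes on either side of squalene had small fold changes, and none was called. Fdft1 (squalene synthase) had a log2 fold change of 0.16, Sqle (squalene epoxidase, a rate-controlling step) 0.26 and Lss (lanosterol synthase) 0.10. Cyp51, the lanosterol demethylase gene, gave 0.14 with an interval of -0.13 to 0.42. Msmo1, Sc5d, Dhcr7 and Tm7sf2, which encode later oxidases and reductases of the sterol ring, gave 0.06, 0.01, 0.09 and 0.11. Sc5d stood below 0 with library size only (-0.01) and with upper quartile scaling (-0.02). GENCODE annotates another gene overlapping on the opposite strand for 11 of the 33 genes, among them Ctsb at Fdft1, Akap9 at Cyp51 and Rai1 at Srebf1, and on the same strand for 9, among them Vps51 at Tm7sf2 and a microRNA gene at Fads1. Fads2 has none. The sources used here do not give the strand setting of the counting, so reads of such partners cannot be told apart.

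None of the 5 regulators of the pathway was called without or with the block. All 5 had absolute log2 fold changes under 0.25, from -0.13 (Scap) to 0.10 (Insig1). Srebf2 (Entrez 20788, chromosome 15, 82147269 to 82205379), encoding the SREBP that mainly drives sterol genes, was at 501, 671 and 649 CPM in the untreated group and at 581, 696 and 660 CPM after CpG. The library numbered 2 was the lowest in both groups. The log2 fold change was 0.09 (SE 0.13, interval -0.22 to 0.39, edgeR adjusted p = 0.890).

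Srebf1, whose products drive mainly fatty acid genes, was at 109, 121 and 124 CPM untreated and 115, 127 and 113 CPM after CpG. Its ranges overlapped almost fully, with a log2 fold change of 0.00 (SE 0.10, interval -0.22 to 0.23), and its sign turned with library size only (-0.02) and upper quartile scaling (-0.03). Per length Srebf2 exceeded Srebf1 by 4.33 to 5.23 times in untreated and by 4.76 to 5.50 times in CpG-pretreated libraries. Scap, the escort protein gene, was at 149, 168 and 153 CPM untreated and 133, 142 and 155 CPM after CpG, lower in pairs 2 and 3 and level in pair 4. Its fold change of -0.13 (SE 0.10) was not called (adjusted p = 0.722).

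Insig1, the retention factor whose own gene is an SREBP target, stood at 24.2, 26.9 and 28.5 CPM in the untreated group. After CpG it stood at 30.2, 30.4 and 24.7 CPM, lower than untreated in pair 4 and higher in pairs 2 and 3 (log2 fold change 0.10, SE 0.13, adjusted p = 0.862). Insig2, its relative, stood at 14.9, 17.1 and 13.8 CPM untreated and at 15.3, 13.2 and 15.6 CPM after CpG, with overlapping groups (-0.05, adjusted p = 0.950). The level of Insig1 per length was 1.496 to 1.97 times that of Insig2 in untreated libraries and 1.51 to 2.20 times in CpG-pretreated ones. Stard4, a cytosolic sterol carrier gene, was at 13.03, 26.5 and 23.8 CPM untreated and 18.5, 26.3 and 24.8 CPM after CpG. Both libraries numbered 2 were low, and the rest were alike (log2 fold change 0.13, SE 0.26, adjusted p = 0.922).

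The 3 genes that make palmitate differed widely in level per length, with means of 70.0 (Acly), 16.9 (Fasn) and 2.17 (Acaca) CPM per kilobase, and none was called without or with the block. Acly, which makes cytosolic acetyl-CoA from citrate, was at 240, 320 and 329 CPM in the untreated group and at 307, 324 and 339 CPM after CpG. Untreated library 2 stood apart from the other 5, which lay close together (log2 fold change 0.13, SE 0.13, edgeR adjusted p = 0.813). Fasn, fatty acid synthase, was at 100, 185 and 192 CPM untreated and 149, 204 and 176 CPM after CpG. Again untreated library 2 was far below the rest, and the fold change of 0.15 (SE 0.23) was +0.57 in pair 2, 0.15 in pair 3 and -0.13 in pair 4. Acaca, acetyl-CoA carboxylase, had a log2 fold change of 0.02 (SE 0.27), which was -0.00097 with library size only, -0.01 with upper quartile scaling and -0.12 without both libraries numbered 2.

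Length moved with these values. Acaca and Fasn are the longest genes of the list in the count table, at 9032 and 9938 bases, and in untreated library 2 they lay 0.68 and 0.61 below their group mean on the log2 scale. Across the 33 genes the Spearman correlation of gene length with the deviation from the group mean was -0.62 in untreated library 2 and -0.57 in CpG-pretreated library 2, as over all genes (-0.67 and -0.55). It was 0.15 to 0.58 in the other 4 libraries. The deviations of 1 group sum to 0, so the libraries do not vary separately, and these values are a description only. Part of the spread of the long genes thus moved with the replicate number. With the log2 ratios of pairs 2, 3 and 4, length correlated at 0.29, -0.21 and -0.07 for the 33 genes. Over all genes these values were 0.22, -0.12 and 0.004. The part of length in the fold changes was not tested.

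**Figure D3:**
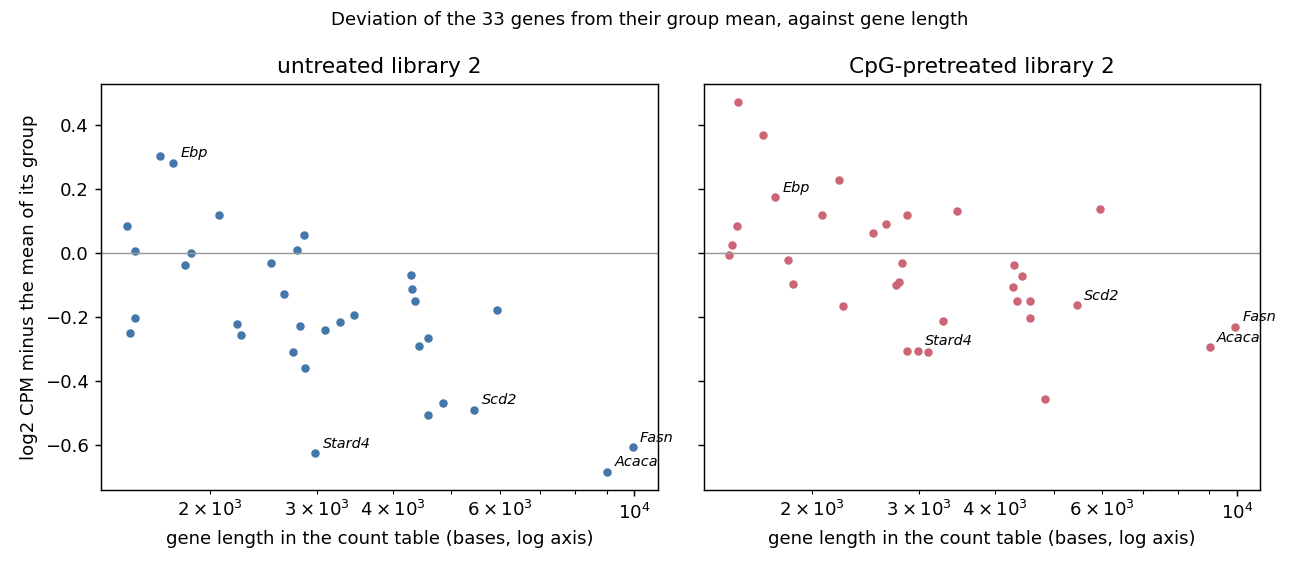
Deviation of log2 CPM from the group mean, plotted against gene length on a log axis, for the 33 genes in untreated library 2 (left) and CpG-pretreated library 2 (right). Long genes such as Fasn and Acaca lie below 0 in both, and the short gene Ebp lies above 0.

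The 6 desaturase and elongase genes held the only members called with the block. Their median log2 fold change was 0.25, and all 6 were above 0, although Elovl5 and Scd1 were not with each library left out in turn. Fads2 encodes the desaturase that opens the conversion of linoleic and alpha-linolenic acid into long polyunsaturated fatty acids. Fads1 encodes the desaturase that acts later in the same chain, and its gene is a neighbour of Fads2 on chromosome 19 (RefSeq on GRCm38: Fads2, Entrez 56473, 10062765 to 10101503; Fads1, Entrez 76267, 10182877 to 10196874).

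Fads2 was counted 8, 13 and 8 times untreated and 46, 37 and 19 times after CpG. In CPM these were 0.983, 1.63 and 0.983 against 5.64, 4.69 and 2.39. The groups did not overlap, and CpG-pretreated library 4 was the lowest of its group. The log2 fold change was 1.82 (SE 0.39, interval 0.91 to 2.72), a fold of 1.88 to 6.57 over that interval. Fads2 was higher in 3 of 3 pairs, as 15 of the 33 genes and 22.2% of all genes tested were. It was not called without the block (edgeR adjusted p = 0.0779), rose with the block (adjusted p = 0.00336), and was called by DESeq2 (0.00855), without the filter on low counts (0.0384) and without CpG-pretreated replicate 4 (0.0149). Over these and the other alternatives the adjusted p ranged up to 0.266, the value without both libraries numbered 2, where the log2 fold change was 1.43 (0.0557 with the block).

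Fads1 had the higher level per length and the smaller fold change. It stood at 14.9, 18.3 and 18.2 CPM in the untreated group and at 29.3, 30.2 and 21.7 CPM after CpG. Here too the groups did not overlap and CpG-pretreated library 4 was nearest to the untreated ones. The log2 fold change was 0.66 (SE 0.16, interval 0.29 to 1.03). Fads1 was higher in 3 of 3 pairs, as were 22.2% of all genes tested. It was not called without the block (edgeR adjusted p = 0.104), rose with it (0.0102), and was called by DESeq2 (0.0268) and without CpG-pretreated replicate 4 (0.0299). The adjusted p ranged up to 0.339, without CpG-pretreated replicate 3, and was 0.291 without both libraries numbered 2 (0.0871 with the block). Per length the level of Fads1 was 4.89 to 8.06 times that of Fads2 in untreated libraries and 2.26 to 3.95 times in CpG-pretreated ones, ranges that did not overlap.

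Some markers of other cells, of dendritic cell subsets and of the cell cycle also differed between the groups, in both directions. Of the 17 erythroid markers listed, 15 were in the table, and their summed level was 69.4 to 172 CPM untreated against 1636, 1493 and 369 CPM after CpG, lowest in library 4 as for both desaturase genes. Of these markers 6 were called, and 5 with the block. Hba-a1 was at 0 in all 6 libraries. The 21 cell cycle genes summed to 2336 to 2457 CPM untreated and 3208 to 3885 CPM after CpG, and the 14 red pulp macrophage genes to 641 to 806 and 402 to 548 CPM, with 3 and 5 genes called, and 20 and 11 with the block. Of the B cell and neutrophil lists 0 genes were called. With the block 2 B cell genes fell, Cr2 (log2 fold change -1.40) and Blk (-0.54), and 1 neutrophil gene rose, Mpo (1.51). Of the 9 markers of CD8-positive (cDC1) dendritic cells 0 were called, and 4 rose with the block (Xcr1, Itgae, Irf8 and Tlr3). Each of these had its lowest CpG-pretreated value in library 4, where Itgae (0.756 CPM) lay below the untreated libraries (0.983 to 1.25 CPM). The rest of this list had log2 fold changes of 0.53 (Cd8a), 0.01 (Clec9a), -0.05 (Wdfy4), -0.27 (Batf3) and -0.40 (Cadm1). Irf8 was at 41.2, 44.9 and 37.0 CPM untreated and 82.5, 87.2 and 43.6 CPM after CpG. Of the 10 markers of CD8-negative (cDC2) cells, 1 was called (Esam, lower), and 5 fell with the block (Esam, Cd209a, Cd4, Mgl2 and Dtx1). The others had log2 fold changes of 0.28 (Itgam), -0.05 (Ltb), -0.07 (Sirpa), -0.18 (Clec4a4) and -0.35 (Irf4). The part of these lists in the values of Fads1 and Fads2 was not tested. In such bulk samples, a change in the number of cells of a type and a change in RNA per cell cannot be told apart.

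**Figure D4:**
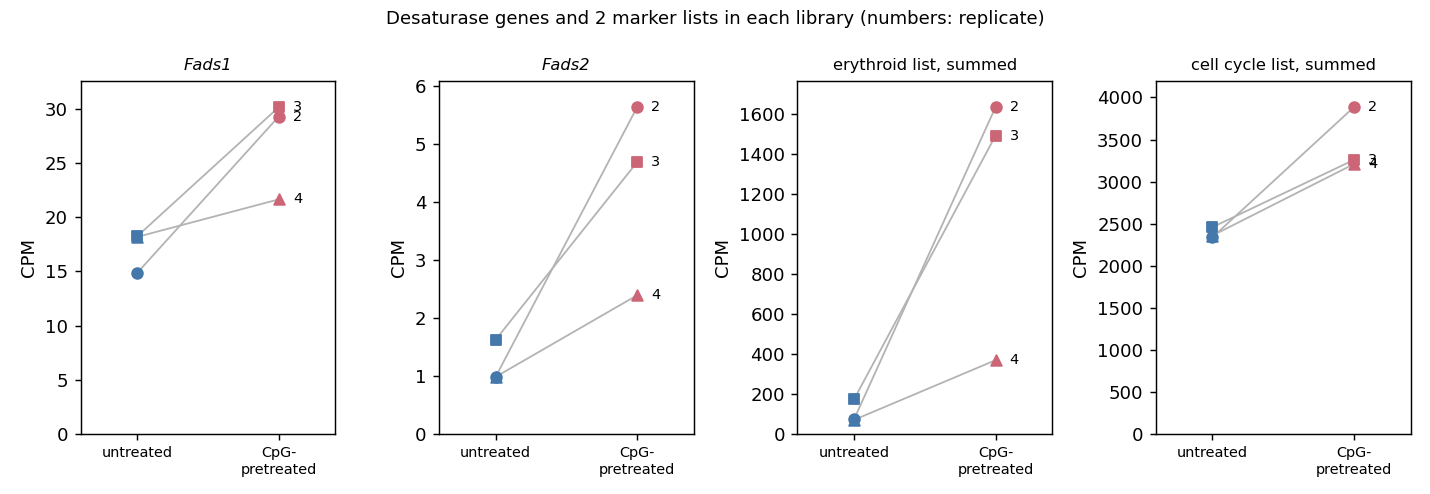
CPM of Fads1 and Fads2 and summed CPM of the erythroid and cell cycle marker lists in each library, with grey lines joining libraries of the same replicate number and the number printed beside the CpG-pretreated point. All 4 panels are higher after CpG, and library 4 is the lowest CpG-pretreated point in each. In the cell cycle panel it lies close to library 3 (3208 and 3258 CPM), and library 2 stands above both (3885 CPM).

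The stearoyl-CoA desaturase genes, which introduce the first double bond into saturated fatty acids, were represented almost wholly by Scd2. Scd2 was at 97.6, 178 and 148 CPM in the untreated group and at 149, 198 and 157 CPM after CpG. The groups overlapped, and the library numbered 2 was the lowest of each (log2 fold change 0.25, SE 0.21, edgeR adjusted p = 0.745, and 0.118 with the block). Scd1, the main liver form, had only 9, 13 and 19 counts untreated and 11, 21 and 16 after CpG. Per length Scd2 exceeded Scd1 by 56.1 to 97.4 times untreated and by 66.0 to 97.7 times after CpG. Reads shared by these similar genes may have been split between them, by a counting rule that the sources used here do not give.

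Of the elongases, Elovl5, which extends polyunsaturated chains, was far above Elovl6, which extends saturated ones. Elovl5 was at 184, 188 and 176 CPM untreated and 175, 167 and 223 CPM after CpG, with CpG-pretreated library 4 above all others (log2 fold change 0.05, SE 0.12, adjusted p = 0.948). Elovl6 was at 4.67, 6.88 and 4.67 CPM untreated and 6.99, 6.72 and 5.42 CPM after CpG (0.24, SE 0.22, adjusted p = 0.784). The ratio of Elovl5 to Elovl6 per length was 58.5 to 84.2 untreated and 53.1 to 88.2 after CpG.

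The promoters of Fads2, the gene with the largest fold change, and of the sterol genes Hmgcs1 and Srebf2 are shown for comparison. Fads2 was not called in the main test but was in some alternatives, and Hmgcs1 and Srebf2 were called in none. RefSeq sequences (GRCm38.p6) of the 250 bases before the start site were found for 26 of the 33 genes, Fads1 not among them. Capitals mark matches, on either strand, to CCAAT (bound by NF-Y, a partner of the SREBPs) and to TCACNCCAC, a core of the sterol regulatory element. Fads2, on the minus strand at chr19:10101504-10101753, has no match to either. Hmgcs1, on the plus strand at chr13:119690101-119690350, has 1 match to the sterol element core and 3 to CCAAT. Srebf2, on the plus strand at chr15:82147019-82147268, has 1 match to CCAAT.
Fads2: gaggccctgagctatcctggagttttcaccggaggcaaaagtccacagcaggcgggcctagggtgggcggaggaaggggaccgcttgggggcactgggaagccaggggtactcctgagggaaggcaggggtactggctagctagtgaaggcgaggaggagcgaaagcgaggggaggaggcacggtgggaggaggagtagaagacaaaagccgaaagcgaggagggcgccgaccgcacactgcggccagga
Hmgcs1: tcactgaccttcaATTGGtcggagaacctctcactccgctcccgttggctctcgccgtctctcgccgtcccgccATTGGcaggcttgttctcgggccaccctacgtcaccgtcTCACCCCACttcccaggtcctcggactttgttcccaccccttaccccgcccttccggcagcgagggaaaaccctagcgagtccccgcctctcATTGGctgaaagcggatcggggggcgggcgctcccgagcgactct
Srebf2: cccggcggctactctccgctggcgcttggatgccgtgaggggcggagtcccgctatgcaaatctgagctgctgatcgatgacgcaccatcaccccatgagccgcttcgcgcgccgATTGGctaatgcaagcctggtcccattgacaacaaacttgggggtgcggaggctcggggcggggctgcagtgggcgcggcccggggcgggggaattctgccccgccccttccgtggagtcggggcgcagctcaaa
CCAAT was found in 20 of the 26 genes, in at least 1 promoter of each, and in 37.5% of all 27025 genes with a promoter sequence. The sterol element core was found in 1 of 26, Hmgcs1, and in 1.22% of all genes. GGGCGG, the GC box, was found in 21 of 26, Fads2 among them, and in 35.4% of all genes. The shares of all genes were taken without a filter on expression, whereas all 26 had passed the filter on low counts. These sets are therefore unlike, and whether the shares differ for genes of like expression was not tested. In Fasn a pair of CCAAT matches on opposite strands overlap, and none overlap in the promoters printed. Only exact matches to each pattern were sought, so a sterol element with other letters would be missed. The matches describe letters in this window and are no evidence of binding, nor is the lack of a match evidence of its absence.

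Of 32 further genes of sterol and fatty acid synthesis, uptake and SREBP processing, 28 passed the filter. Without the block 0 of 28 were called (1 at an unadjusted p under 0.05, against 12.8% of all genes, and 0 by DESeq2 or limma-voom). With the block 1 of 28 (3.57%) fell, against 3.78% of all genes, and 0 rose. Their median log2 fold change was 0.07, and 27 of 28 had absolute values under 0.25.

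The gene that fell with the block was Mylip, which encodes a ubiquitin ligase and is a target of liver X receptors. It was at 39.9, 44.3 and 40.1 CPM in the untreated group and at 30.8, 31.3 and 35.01 CPM after CpG. Each CpG-pretreated library was below each untreated one. Its log2 fold change was -0.36 (SE 0.11, edgeR adjusted p = 0.181, and 0.0363 with the block), and by DESeq2 the adjusted p was 0.247. Without both libraries numbered 2 the adjusted p with the block was 0.132.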

How the data were processed

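Whole-number counts of reads per Entrez gene ID were deposited, each ID with a gene length. The submitters' processing notes name CASAVA, featureCounts and mm10. The sources used here do not give tool versions, aligner, strandedness or the handling of shared reads. All 6 deposited per-sample count files equalled the series table, and the deposited lengths served for levels per kilobase.

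Symbols came from RefSeq (GRCm38.p6), which matched 25275 of 27179 IDs; unmatched IDs held 0.327% of counts. Using edgeR 4.0.16 (R 4.3.3), filterByExpr selected the genes (minimum count 10, minimum total 15), which were scaled by TMM and tested by robust quasi-likelihood F tests, two-sided, CpG-pretreated against untreated. Genes were called at a Benjamini-Hochberg adjusted p under 0.05 over all genes. Standard errors and 95% intervals derive from the F statistic. CPM use TMM-scaled library sizes, and log2 ratios of pairs add a prior of 2 counts. The unpaired edgeR fit was tried on counts simulated with a common dispersion and no replicate effect. The block, DESeq2 and limma-voom fits were not tried on simulated counts. Alternatives were a replicate block, other scalings and filters, DESeq2 1.42.0, limma-voom 3.58.1 and each library left out. Leaving out both libraries numbered 2 was added after the data were seen.

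Both groups carry the numbers 2, 3 and 4, whose meaning the labels do not give. Deviations from the group mean correlated at 0.48, 0.25 and 0.31 between same-numbered libraries, each over 0.1. The deviations of a group sum to 0, so these correlations do not vary separately. On these data alone the samples were treated as pairs in the block fit and the pair ratios, while the main test was unpaired. No label says that libraries came from separate mice, so p-values cover only the spread among libraries, which may be technical.

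The members and lists were chosen with earlier results of these data known. Library values are given for members called without or with the block, for the largest fold change and highest level per length in each role, and for pairs of related genes. Pmvk, the neighbours of Fads1 and Fads2 and the single cell type markers were named beyond this rule, after values were seen. Some genes of the further pathway list are not reported here by name.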

Additional observations from a re-analysis of the deposited data

How the results depend on the processing

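The count of 0 called among the 33 genes became 2 with the replicate block (2 higher, 0 lower; 988 of all genes, against 113 without it), 2 with DESeq2 (2 higher; 428 of all genes) and 1 without a filter on low counts (1 higher; 189 of all genes), and it was 0 with library size only, upper quartile scaling, limma-voom (41 of all genes) and the filter at 1 CPM. Leaving out 1 library at a time gave 0 to 2 called (0 to 2 higher), the 2 without CpG-pretreated replicate 4, with 0 to 386 of all genes called. The 0 arose without CpG-pretreated replicate 2 or 3, where edgeR gave 1065 and 1107 of all genes at an unadjusted p under 0.05; no other tool was run there. Without both libraries numbered 2 it was 0 (67 of all genes, and 513 with the replicate block). Calls among further pathway genes were 0 except for 1 with the replicate block. Among the 33 genes, the further pathway genes and the neighbours of Fads1 and Fads2, the block changed only the calls of Fads1, Fads2, Mylip, Fen1 and Fth1. The median log2 fold change of the 33 genes was 0.05 to 0.21 with 1 library left out. The members called under any of these alternatives were Fads1 and Fads2, which kept their direction in all of them.

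Genes near 0 turned sign in some settings, all without a call. Sc5d, Srebf1 and Acaca were at -0.013, -0.016 and -0.00097 with library size only and at -0.023, -0.027 and -0.0093 with upper quartile scaling. Without both libraries numbered 2, Tm7sf2, Sc5d, Srebf1, Insig1 and Acaca were at -0.017, -0.030, -0.028, -0.0060 and -0.12, and with the replicate block as well at -0.023, -0.031, -0.030, -0.010 and -0.12. Leaving out 1 library, log2 fold changes spanned -0.24 to 0.19 for Acaca, -0.0054 to 0.24 for Lss, -0.099 to 0.088 for Sc5d, -0.040 to 0.042 for Srebf1, -0.15 to 0.089 for Nsdhl, -0.13 to 0.26 for Mvk, -0.12 to 0.037 for Insig2, -0.019 to 0.17 for Srebf2, -0.11 to 0.33 for Stard4, -0.082 to 0.31 for Fasn, -0.027 to 0.13 for Msmo1, -0.00064 to 0.55 for Scd1, -0.14 to 0.027 for Acat2 and -0.094 to 0.13 for Elovl5. The cause was not tested. Depth limits Idi1, Scd1, Fads2 and Tm7sf2, with under 50 counts in each library.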

Other observations

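Of the genes annotated within 100000 bases of Fads1 and Fads2 on chromosome 19, 5 others passed the filter (Fth1, Best1, Rab3il1, Fen1 and Tmem258), and 0 of them were called without the block. With the block, Fen1, a flap endonuclease gene of DNA replication next to Fads1, rose with a log2 fold change of 0.31 (edgeR adjusted p = 0.0389, and 0.317 without the block). Fth1, the ferritin heavy chain gene beyond Fads2, fell with the block by 0.29 on the log2 scale (adjusted p = 0.0282, and 0.552 without the block). With 1 library left out, the log2 fold change spanned 0.22 to 0.41 for Fen1 (adjusted p 0.147 to 0.685) and -0.42 to -0.09 for Fth1 (adjusted p 0.551 to 0.916), lowest in size without CpG-pretreated replicate 2 for Fen1 and without untreated replicate 2 for Fth1. Best1 (-1.05, adjusted p = 0.255, and 0.0893 with the block) and Rab3il1 (0.97, adjusted p = 0.465, and 0.491 with the block) had larger fold changes and were not called, nor was Tmem258 (-0.05, adjusted p = 0.959). These genes were chosen after their values were seen.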
